A study of Homo sapiens with 18 samples.

Results

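DNA-RNA hybrids of untreated HCT116 cells were mapped by comparing immunoprecipitated DNA with the same DNA digested with RNase H, the enzyme that degrades the RNA strand of a hybrid. HCT116 is an established human colorectal carcinoma line of epithelial origin, and the labels give it no engineered genotype. All cells described here were NT, that is, they received no camptothecin (CPT), the Top1 poison used elsewhere in the study. DNA was cut with the restriction enzymes HindIII, EcoRI, XbaI, SspI and BsrGI, part of it was digested with RNase H, and both parts were immunoprecipitated with the S9.6 antibody against DNA-RNA hybrids (DRIP). There were 2 NT DRIP libraries and 2 NT RNase H DRIP libraries, labelled replicates 1 and 2, each with peaks called on its own against an input library. Libraries of both kinds also received a short RNase H treatment after immunoprecipitation, so the groups differ by the digestion before it. The 4 NT lists held 99544 of the 430858 peaks of all 12 lists. Overlapping peaks of both NT DRIP lists were joined into 12865 shared regions. A shared region with no peak of either NT RNase H list is called a hybrid region (9913 regions, 77.1%), and a shared region met by at least 1 base of such a peak is called a residual region (2952 regions, 22.9%). The rule chose these regions by the presence of peaks, so the split itself is a description. The RNase H lists stood apart from each other, with 473 peaks in replicate 1 and 15790 in replicate 2. A missing peak means only that no signal passed the peak caller's threshold at that library's depth, and both RNase H libraries kept fewer filtered reads than the DRIP library of the same replicate.

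An R loop forms when nascent RNA pairs with the template DNA strand and leaves the other strand unpaired. R loops are known at promoters with GC-rich, G-skewed first exons and at transcription terminators, and they turn over rapidly in cells. RNase H acts on RNA paired with DNA, so DRIP signal that depends on a hybrid should be sensitive to it, whereas DNA brought down in other ways should not.

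Restriction fragments set the outer limits of what DRIP can resolve. The next sequences are shown because they stand at the edges of some of the strongest hybrid regions. Each was read 5′ to 3′ on the plus strand of GRCh37, with the recognition site in capitals.
CCND1 and LTO1 region, left edge, SspI, chr11:69454919-69454948: gcagaggggactAATATTtccagcaattta
CCND1 and LTO1 region, right edge, BsrGI, chr11:69471089-69471118: gatgggtgggtcTGTACAcaccccacccct
SENP3 and EIF4A1 region, left edge, XbaI, chr17:7474184-7474213: ttctttctcttcTCTAGAatgtggccaggc
SENP3 and EIF4A1 region, right edge, XbaI, chr17:7477706-7477735: tttcccagatcaTCTAGAagcagctggttt
NPM1 region, right edge, BsrGI, chr5:170817270-170817299: tacctcactgtcTGTACAtctttgaagaac
RPL3 region, left edge, SspI, chr22:39704857-39704886: ccacagcctgaaAATATTaaagagaaaatt

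The next sequences are shown because they lie under the summits of RNase H replicate 1 peaks that fell on tandem repeats. They were read in the same way, with 1 copy of the repeat unit in capitals.
WASHC1, telomeric repeat near the start of chromosome 9, chr9:10317-10346: ccctaaaccctaaacCCTAACcctacccta
ADAP1 and COX19, chr7:945284-945313: gggaaaggagaaaggAGAAAGGagaaaggg
EXD3, chr9:140249982-140250011: aggaaggaggaaggaGGAAGGAggaaggag
Intergenic, chr12:128053361-128053390: agaagagagagggagAGagagagagggaga

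To see what RNase H digestion removed, the lists were first compared as wholes. DRIP replicate 1 held 30314 peaks and DRIP replicate 2 held 52967. RNase H replicate 1 held 473 peaks and RNase H replicate 2 held 15790. The RNase H list was the shorter one in both replicates, by 29841 peaks in replicate 1 and by 37177 in replicate 2, and the groups did not overlap. The mean was 41640.5 ± 16018 peaks in DRIP against 8131.5 ± 10831 in RNase H libraries (SD, n = 2 each). By exact permutation of the library labels, two-sided p was 0.333, the smallest value that 2 libraries against 2 allow, so this test could not reach 0.05 for any comparison of these groups. DRIP peaks covered 31.0 and 59.7 Mb, and RNase H peaks 0.157 and 8.12 Mb. DRIP peaks were also wider, with medians of 563 and 513 bp against 248 and 377 bp. Fold enrichment over input, the ratio that the peak caller gives for each peak, had higher medians in the short RNase H lists (5.48 and 4.55) than in the DRIP lists (3.82 and 3.69). These ratios are not scaled between libraries, so the folds given below for several libraries stand side by side, and only ranks within a list are compared.

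**Figure D1:**
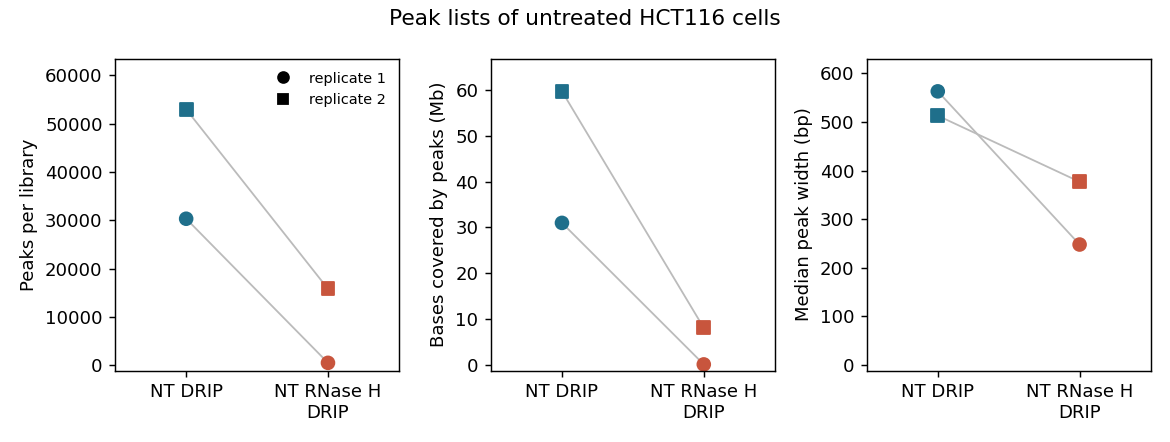
Number of peaks, DNA covered (Mb) and median peak width (bp) of each NT library, with 1 point per replicate and DRIP and RNase H DRIP on the x axis. DRIP points lie above RNase H points in each panel, and the RNase H replicates differ, with 473 and 15790 peaks.

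DRIP peaks lay near gene ends more often than RNase H peaks did. Each peak was placed by its midpoint in a promoter (5′UTR and 10000 bp upstream), a terminator (3′UTR and 10000 bp downstream), an exon, an intron or between genes. Promoters held 19.4% and 20.8% of DRIP peaks, 7.19% and 16.9% of RNase H peaks, and 6.54% of evenly spaced genome positions. Terminators held 16.2% and 15.6% of DRIP peaks, 7.61% and 11.6% of RNase H peaks, and 5.83% of genome positions. Intergenic DNA held 20.3% and 17.1% of DRIP peaks and 38.3% and 29.7% of RNase H peaks, against 46.9% of genome positions. The DRIP and RNase H libraries did not overlap in any of these shares. The promoter difference was 12.2 percentage points in replicate 1 and 3.97 in replicate 2, with p = 0.333 in the two-sided exact permutation test. Introns took the largest share of each list, at least 40.2%. Base composition over whole lists did not separate the groups. Median GC content at summits was 50.7% and 51.2% in DRIP and 49.8% and 51.2% in RNase H libraries (exact permutation p = 1.0), all above the 39.8% of genome positions. In the 473 strongest peaks of each list, ranked by −log10 p, median GC content did separate them. It was 57.7% and 58.2% in DRIP and 49.8% and 53.2% in RNase H libraries (exact permutation p = 0.333). For RNase H replicate 1 these peaks are the whole list, and the DRIP peaks so chosen were wide, with medians of 7812 and 11215 bp.

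**Figure D2:**
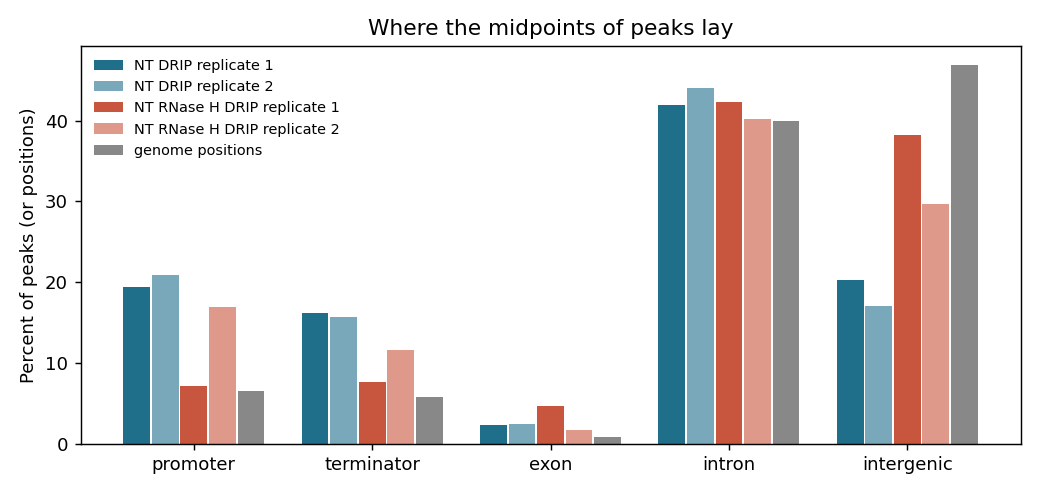
Percent of peaks of each NT list, and of evenly spaced genome positions, whose midpoint lies in each genomic class. DRIP lists have larger promoter shares (19.4% and 20.8%) than RNase H lists (7.19% and 16.9%), and RNase H lists larger intergenic shares (38.3% and 29.7%).

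The positions of peaks along genes showed the same contrast. At the transcription start site (TSS), the share of the 20162 protein-coding genes under a DRIP peak was highest just inside the gene. It reached 8.80% at 900 bp downstream in DRIP replicate 1, against 4.36% at 10 kb upstream. In DRIP replicate 2 it reached 18.3% at 500 bp downstream, against 8.14% at 10 kb upstream. RNase H replicate 2 was highest at -1000 bp, with 1.03% of genes under a peak, against 0.764% at 10 kb upstream. The ratio of the highest share to that at 10 kb upstream was thus 1.35, against 2.02 and 2.25 in DRIP replicates 1 and 2. Shares were not scaled for the DNA that each list covered. Around the transcript end (TES), DRIP shares were highest inside the gene, with 8.87% at -600 bp from the end in replicate 1 and 14.9% at -2200 bp in replicate 2. Ratios to the share at -10 kb were 1.61 and 1.41, against 1.22 in RNase H replicate 2.

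**Figure D3:**
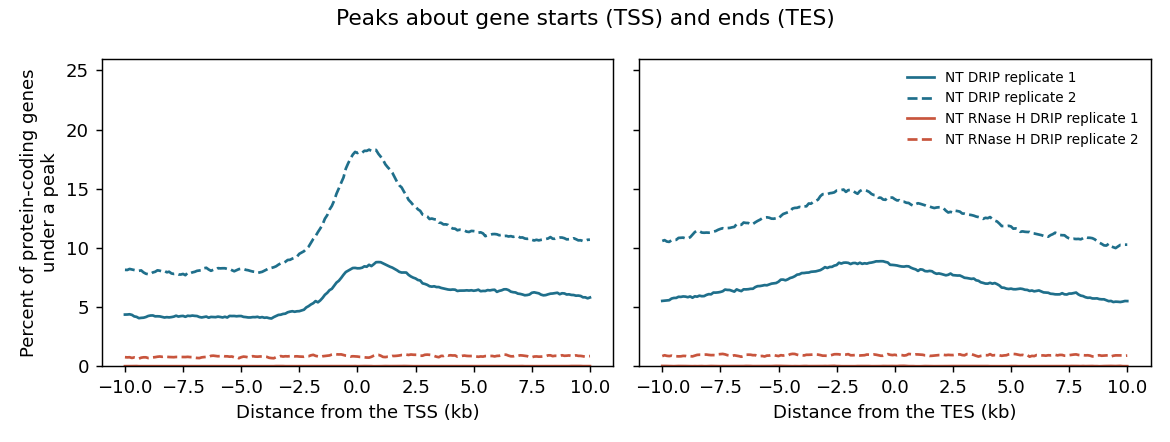
Percent of 20162 protein-coding genes under a peak at each distance (kb) from the gene start (left) and end (right), with 1 line per NT library and positive distances in the direction of transcription. DRIP lines rise to 8.80% and 18.3% near the start, while RNase H replicate 2 stays at or below 1.03% there and RNase H replicate 1 lies along 0.

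Peaks of the replicates overlapped in part. DRIP replicate 2 met 59.0% of the peaks of DRIP replicate 1, and DRIP replicate 1 met 26.3% of those of replicate 2. RNase H replicate 2 met 194 of the 473 peaks of RNase H replicate 1 (41.0%), which in turn met 0.956% of the RNase H replicate 2 peaks. Of the 12865 shared DRIP regions, 9913 (77.1%, 95% Wilson interval 76.3 to 77.8, counting error only) had no RNase H peak and 2952 (22.9%) had one. The RNase H lists did not contribute equally to the latter. RNase H replicate 2 alone met 2853 regions, replicate 1 alone met 5, and both met 94. Without RNase H replicate 1 the share with no peak was 77.1%, and without replicate 2 it was 99.2%, so the split of the shared regions rested on replicate 2. The number of hybrid regions rested on both DRIP lists, since peaks of replicate 2 alone would give 47232 and peaks of replicate 1 alone 26561.

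Hybrid regions covered 23.2 Mb, with a median width of 1378 bp, and residual regions covered 14.95 Mb, with a median of 2617 bp. Regions with an RNase H peak were also the stronger DRIP regions. The median rank of their strongest peak was the 78.5 and 90.5 percentile of DRIP lists 1 and 2, against 57.0 and 77.8 for hybrid regions. The residual share was 14.3% among regions up to 500 bp and rose with width to 59.4% among those over 8000 bp (606 of 1020). A wide region has more bases that can meet a peak, and the part of width in the residual share was not tested. By rank, the share went from 14.1% in the weakest class to 52.0% in the strongest (525 of 1010). RNase H peaks usually covered only part of a residual region, with a median of 28.0% of its bases. In 654 regions (22.2%) they covered under 10%, and in 169 (5.72%) they covered all of it. The DRIP summit lay inside an RNase H peak in 58.4% of residual regions in replicate 1 and 59.7% in replicate 2.

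**Figure D4:**
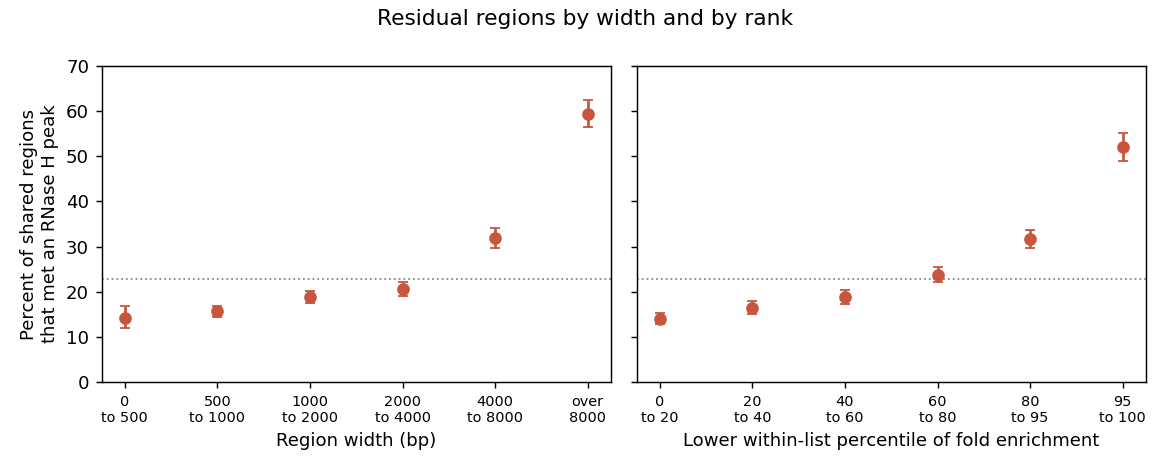
Percent of shared NT DRIP regions that met an RNase H peak, by region width (bp) and by the lower of the region's percentile ranks in the DRIP lists, with 95% Wilson intervals. The share rises from 14.3% to 59.4% with width and from 14.1% to 52.0% with rank.

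The genic classes of hybrid and residual regions differed little, whereas residual regions were more often intergenic. Promoters held 24.6% of hybrid regions (23.7 to 25.4) and 21.3% of residual regions (19.9 to 22.8). Terminators held 19.9% and 18.5%, and introns 41.6% and 39.9%. Intergenic DNA held 10.8% of hybrid regions (10.2 to 11.5) and 16.7% of residual regions (15.4 to 18.1). This contrast depended on the RNase H lists used. Of the 3577 hybrid regions with no peak in any of the 6 NT and CPT RNase H lists, 14.5% were intergenic, against 12.2% of all shared regions. The direction of the gene end differences was not stable. The promoter difference, 3.26 percentage points, became -0.00551 when any overlap with a promoter counted in place of the midpoint, and -0.917 without DRIP replicate 2. The terminator difference, 1.37 points, became -1.49 without DRIP replicate 2. A TSS was covered by 14.4% of hybrid regions and by 17.9% of the wider residual regions. Of hybrid regions, 66.2% had an edge within 6 bp of a cut site of the 5 enzymes, and so did 62.8% of residual regions, against 2.52% of genome positions.

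Chromosome 19, the most gene-dense human chromosome, carried 1789 shared regions and 19.9 hybrid regions per Mb. Chromosomes 17 and 22 followed with 10.9 and 10.0 per Mb, whereas X had 0.663 and chromosome 18 had 0.833. The residual share was 34.3% on chromosome 19 and 9.65% on X.

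Genes whose start lay in a hybrid region were more GC-rich and G-skewed at their beginning than the median gene. The TSS of 1746 of 20162 protein-coding genes (8.66%) lay in a hybrid region and that of 777 (3.85%) in a residual region. In the first 500 bp of the former, median GC content was 68.8%, against 68.2% at residual TSSs and 62.4% over all genes. Median GC skew, the excess of G over C on the coding strand as a share of both, was 0.0722 at hybrid TSSs, 0.0560 at residual TSSs and 0.0466 over all genes. Skew was positive at 71.6% of hybrid TSSs and at 64.7% of all TSSs. The same genes were shorter, with a median of 17.5 kb against 27.2 kb over all genes and 9.84 kb for residual TSSs. Both ends of a gene lay in hybrid regions for 479 genes (2.38%), with a median length of 7.57 kb.

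The 10 strongest hybrid regions lay at genes of mixed function, and most overlapped several genes. The region ranked first by its lower percentile covered CCND1, which encodes the G1 cyclin D1, and extended to LTO1 (chr11:69454934-69471105), with fold enrichments of 26.1 and 41.4 in DRIP replicates 1 and 2. It was bounded by the SspI and BsrGI sites printed above. PIERCE1 and MRPS2, the latter a mitochondrial ribosomal protein gene, shared a region at chr9:138390446-138399804 with folds of 25.5 and 34.4. A region of 3526 bp at SENP3 and EIF4A1 (chr17:7474197-7477722), which encode a SUMO protease and the RNA helicase of translation initiation, ran from one XbaI site to the next with folds of 24.2 and 36.2. APC2, C19orf25 and PCSK4 shared the region with folds of 31.5 and 24.3. The other 6 of the 10 were at CFL1 (cofilin, an actin-severing protein) with SNX32 and MUS81, NPM1 (a nucleolar chaperone; 20.3 and 33.1), RPL3, RPL29 with its neighbours, TUBGCP6 with HDAC10 and MAPK12, and RRP7A. Peaks of both DRIP lists were present at each, as the rule requires, and no NT RNase H list had a peak there, but all 10 met a peak of at least 1 RNase H list from CPT-treated cells. The widest hybrid region, 33336 bp, covered FLNA, which encodes the actin crosslinker filamin A, and EMD, which encodes the nuclear envelope protein emerin (chrX:153575440-153608775). Others of the widest lay at DGKZ, MDK and CHRM4 (25980 bp), SSBP4, ISYNA1 and ELL (25563 bp), and ALDH3B1, NDUFS8 and TCIRG1 (25329 bp).

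Many hybrid regions met a peak when RNase H lists from CPT-treated cells were added. Those lists differ from the NT lists in both treatment and number of peaks, and the parts of these cannot be told apart here. Of hybrid regions, 63.9% met a peak of at least 1 of the 4 RNase H lists from CPT-treated cells, and of residual regions 90.4% did. Most of this came from replicate 2, whose lists held 50353 (5 min) and 67188 (60 min) peaks, against 3439 and 5392 in replicate 1. Replicate 2 lists met 40.7% and 56.4% of hybrid regions, and replicate 1 lists 1.61% and 1.56%. A total of 3577 hybrid regions, 27.8% of shared regions, met none of the peaks of all 6 RNase H lists. These were narrower, with a median of 952 bp, and ranked lower, at a median percentile of 64.1 in DRIP replicate 2 against 77.8 for all hybrid regions. Of them 4.58% covered a TSS and 47.2% were intronic. The strongest lay at SNX8 and EIF3B, which encodes a subunit of a translation initiation factor (chr7:2392843-2395645; folds 10.6 and 14.4), INF2, an actin-regulating formin gene (chr14:105183896-105186941; 10.2 and 10.9), and CORO1C, which encodes an actin-binding coronin (chr12:109123800-109125920; 10.2 and 10.8).

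Gene groups were described by the share of their genes that a hybrid region overlapped, which was 26.6% over all 20162 protein-coding genes (11.0% for residual regions). Cytosolic ribosomal protein genes were overlapped by hybrid regions in 40 of 89 cases (44.9%) and by residual regions in 22 (24.7%). RPL3 had folds of 22.8 and 21.9 with no NT RNase H peak. RPL36 had 23.2 and 45.0 with an RNase H replicate 2 peak of 5.12. RNase H replicate 1 had no peak in any of the 89 genes, and RNase H replicate 2 had peaks in 13 of 89, against 23.1% of all genes. Translation factor genes were overlapped by hybrid regions in 30 of 71 cases (42.3%), with EIF4A1 at 24.2 and 36.2 and EIF4B at 11.7 and 22.5. EEF2, the elongation factor that moves the ribosome along the mRNA, lay in a residual region, with folds of 22.9 and 33.7 and an RNase H replicate 2 peak of 3.78.

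Immediate early genes, short genes that are switched on rapidly by growth signals, were overlapped by hybrid regions in 10 of 16 cases (62.5%), and at 7 of them the TSS was included. JUND had folds of 8.93 and 21.3, FOS of 9.47 and 7.43, EGR1 of 7.15 and 8.82 and JUN of 5.60 and 12.2, none with an NT RNase H peak. FOSL1 was the only one in a residual region, with folds of 17.4 and 40.04 and an RNase H replicate 2 peak of 12.6. The protein-coding hosts of snoRNAs were overlapped by hybrid regions in 8 of 12 cases, among them NCL (nucleolin; 8.77 and 15.1) and HSPA8 (7.64 and 12.9). Heat shock and chaperone genes, at 12 of 50 (24.0%), were near the background. Replication-dependent histone genes were mostly without DRIP peaks, which 52 of 64 lacked in both lists, against 39.1% of all protein-coding genes. They are short, with a median of 0.509 kb. Olfactory receptor and keratin-associated protein genes, known from sensory neurons and hair, were short too, with medians of 1.97 and 0.859 kb. Hybrid regions overlapped 7 of 414 olfactory receptor genes (1.69%) and 2 of 94 keratin-associated protein genes. Gene length and neighbouring genes differ between these groups, and their part in the shares was not tested.

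Of 16 loci often used in DRIP-qPCR, 12 had peaks of both NT DRIP lists, against 38.9% of all protein-coding genes. CALM3 (calmodulin; 5.69 and 5.27), APOE (18.8 and 14.97), EGR1, JUN and GADD45A had a TSS in a hybrid region and no NT RNase H peak. At TFPT the DRIP folds were 15.2 and 19.4, and RNase H replicate 2 kept 5 peaks of up to 9.85. BTBD19 (12.5 and 21.9, with 6.86 in RNase H replicate 2) and MYADM (7.68 and 14.0, with 5.89) also lay in residual regions. RPL13A, with 11.1 and 40.7, lay in a residual region whose RNase H peak was outside the gene itself. VIM, SNRPN and FMR1 had no peak in either DRIP list. Markers of the line's epithelial origin were met in part. Shared regions overlapped 6 of 12 epithelial markers, against 31.7% of all protein-coding genes. Hybrid regions overlapped 4 of the 12 and residual regions 4, against 26.6% and 11.0% of all genes. The adjacent keratin genes KRT8 and KRT18 shared a DRIP peak of 9.28 and 42.1 in a residual region. RNase H replicate 2 had peaks of up to 5.90 at KRT8 and 5.18 at KRT18. KRT19 and CLDN4 also met residual regions, whereas CDH1, CDX1 and CLDN3 had no DRIP peak in either list. Shared regions overlapped none of 3 hepatocyte, 3 neuron and 4 muscle markers, 1 of 5 blood markers (CD79A) and 1 of 4 fibroblast markers (COL1A1).

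The RNase H peaks were next divided by whether a DRIP peak met them. DRIP peaks of both lists met 125 RNase H replicate 1 peaks (26.4%), and 270 (57.1%) met none. In replicate 2, 4005 (25.4%) were met by both DRIP lists and 8055 (51.0%) by neither. Tandem repeats lay under many RNase H replicate 1 summits. A summit was counted when the sequence within 150 bp on either side matched itself at 60% or more after a shift of 1 to 60 bp. Such summits made up 0.828% and 0.693% of DRIP lists 1 and 2 (251 and 367 peaks), 22.2% of RNase H replicate 1 (105 peaks; 95% Wilson interval 18.7 to 26.2) and 2.73% of RNase H replicate 2 (431 peaks), against 0.485% of genome positions. Both RNase H lists lay above both DRIP lists, and the exact permutation p was again 0.333. The result was chosen after the data were seen, and at 80% identity the shares were 0.175% and 0.110% for DRIP and 5.07% and 0.348% for RNase H. In the 473 strongest peaks of each list by −log10 p, all of RNase H replicate 1, the shares were 1.48% and 0.423% for DRIP and 22.2% and 5.29% for RNase H. Windows of at least 80% purine on 1 strand were at 10.6% of RNase H replicate 1 summits, 0.868% of RNase H replicate 2, 0.287% and 0.193% of DRIP summits, and 0.319% of genome positions. Many of these purine summits were also counted as tandem repeats. They were 42 of 50 in RNase H replicate 1, 81 of 137 in RNase H replicate 2, and 30 of 87 and 30 of 102 in DRIP replicates 1 and 2.

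**Figure D5:**
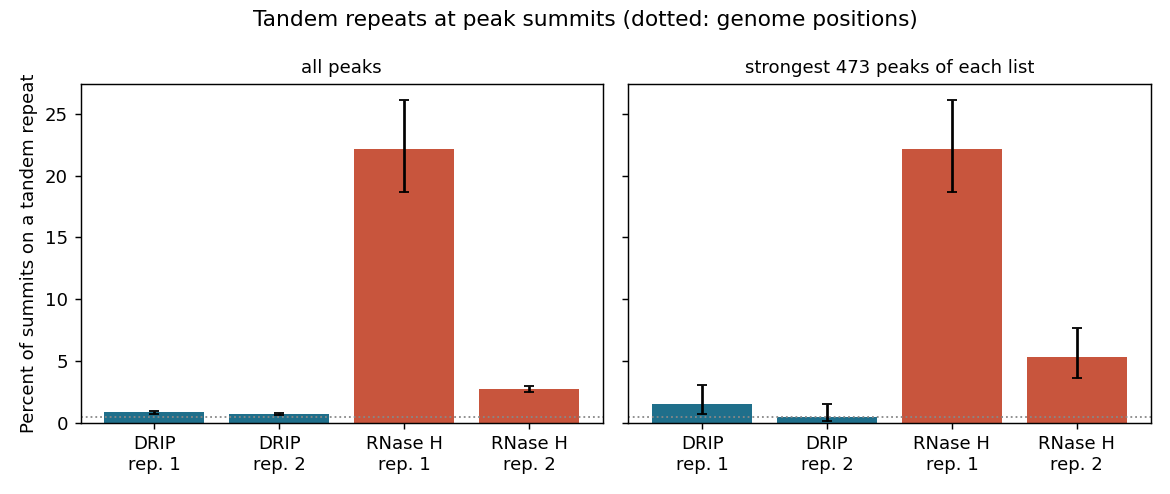
Percent of summits on tandem repeats, for all peaks and for the strongest peaks of each NT list (as many as the shortest list holds), with 95% Wilson intervals and genome positions for reference. RNase H replicate 1 stands highest, with 22.2%.

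Tandem repeats were also found in some of the few regions that both RNase H lists met. Each of these regions held a peak of RNase H replicate 1, in which 22.2% of summits lay on tandem repeats. Their repeat share is therefore not independent of that list. Of these 94 regions, 20 (21.3%) had tandem repeats at a DRIP summit, against 68 of 2952 residual regions (2.30%) and 68 of 9913 hybrid regions (0.686%). Within 500 kb of a chromosome end lay 11.7% of the 94, 2.24% of residual regions and 1.26% of hybrid regions. The strongest were largely outside protein-coding genes. The first by rank, at chr21:48119141-48119895, had folds of 66.7 and 69.8 in DRIP and 24.6 and 50.3 in RNase H replicates 1 and 2. A region at RNA5SP18, at the end of the 5S rRNA gene array of chromosome 1 (chr1:228782511-228785038), had 33.3 and 27.5 in DRIP and 18.1 and 44.1 after RNase H. Neighbouring regions on chromosome 19 took several of the 10 places, and the first of them, at LINC00665 (chr19:36781109-36784096), had 49.0 and 49.8 in DRIP and 18.1 and 61.7 after RNase H. The region at WASHC1 (chr9:10035-16130), whose telomeric repeat is printed above, had 57.6 and 55.4 in DRIP and 16.2 and 37.9 after RNase H. The purine repeat at ADAP1 and COX19 had 8.48 and 16.6 in DRIP and 9.79 and 21.8 after RNase H. The region in an intron of FOXK2, a forkhead transcription factor gene (chr17:80543369-80544907), had 11.9 and 16.8 in DRIP and 13.1 and 25.1 after RNase H. At each of these regions all 4 lists held a peak, which for the 10 strongest the rule required.

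Of the 270 RNase H replicate 1 peaks met by no DRIP peak, 37 (13.7%) met a peak of RNase H replicate 2. The GGAAGGA repeat in an intron of EXD3 printed above (chr9:140249912-140250217) had folds of 12.7 and 9.32, and the AG repeat on chromosome 12 (chr12:128053308-128053617) had 7.77 and 7.26. Others among the first 5 by rank were near GH1, the growth hormone gene (chr17:61994088-61994449; 8.16 and 6.08), and between genes on chromosome 20 (chr20:11503765-11504302; 7.69 and 6.74). The first was an exonic peak of DICER1 (chr14:95560219-95560496), with 683 in replicate 1 and 19.2 in replicate 2.

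DICER1, which encodes the ribonuclease that cuts microRNA precursors, stood apart from the other loci. Its body (chr14:95552565-95624347, minus strand) held 10 peaks in DRIP replicate 1, with folds of 116 to 362, and 10 peaks in RNase H replicate 1, with folds of 186 to 849. In replicate 2 the DRIP list had 5 peaks of 3.32 to 6.47 and the RNase H list had 10 of 15.3 to 37.9. The highest folds of DRIP replicate 1 and of RNase H replicate 1 over the whole genome were both at this gene. All DICER1 peaks of the DRIP replicate 1, RNase H replicate 1 and RNase H replicate 2 lists overlapped an exon, as did 3 of the 5 of DRIP replicate 2. Overlap is a looser rule than the midpoint, by which the strongest DRIP replicate 1 peak lay in an intron. Exons were covered over 46.0% and 17.5% of their bases in DRIP and 43.7% and 45.0% in RNase H replicates 1 and 2, while introns were covered over 2.64% to 6.43%. DICER1 was examined in this detail after its values were seen.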

How the data were processed

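Peaks of the 4 NT libraries of HCT116 cells were analysed, with the 8 CPT libraries for reference. Upstream, the authors used Cutadapt for trimming, BWA for alignment to hg19 plus the sacCer3 yeast spike-in, and SAMtools and Picard to drop duplicates and blacklisted reads. MACS2 peaks come from single libraries set against input. Versions are not given in the sources used here. The deposited lists hold a fold enrichment (a ratio to input), −log10 p and q, and a score, which was not used. Read numbers and spike-in factors are not among the columns, so the reads behind a value are unknown here, library read totals entered only as the order stated in words, and intervals cover counting error only.

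Replicates were labelled as separate samples, biological in the study's methods, each joined from parallel DRIP samples. The same number marked DNA of the same digest, so replicate numbers paired DRIP and RNase H libraries; peak lists allowed no further check. The members, gene lists and loci were chosen with earlier results of these data known. Peaks overlapped when they shared at least 1 bp. Genes were 20162 protein-coding genes of GENCODE on GRCh37, and genome positions were taken every 50000 bp. Regions in the text were the 10 strongest hybrid and residual regions (with a peak of both RNase H lists for the latter), the 5 widest hybrid regions and the 5 strongest peaks of both RNase H lists with no DRIP peak, all by the lower or lowest percentile within lists. Of gene lists, the members with the highest percentiles were named. A few items are not reported here. Computations used Python 3.11.15, NumPy 2.4.6, pandas 2.3.3, SciPy 1.17.1 and pysam 0.24.0, and were tested on simulated data. Alternatives were a stricter threshold, equal list lengths, other overlap, joining and placing rules, each library left out, and the replicate block.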

Additional observations from a re-analysis of the deposited data

How the results depend on the processing

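With 2 libraries a group, the exact permutation test could not pass 0.05. DRIP kept more, wider peaks and more promoter peaks under every alternative that gave a value. With the replicate block the differences were the same, and the two-sided exact sign-flip permutation p was 0.5 for 33509 peaks, 41.2 Mb, 225.5 bp of width, 8.10 promoter points and -11.7 tandem repeat points, and 1.0 for 0.498 points of GC. Leaving out either replicate number gave 29841 to 37177 peaks, 30.8 to 51.6 Mb, 136 to 315 bp, 0 to 0.995 points of GC, 3.97 to 12.2 promoter points and -21.4 to -2.04 tandem repeat points. With the 4 lists cut to the shortest length the covered DNA differed by 4.56 Mb, the median width by 8935 bp, the promoter share by 28.4 points, GC by 6.47 points and the tandem repeat share by -12.8 points, and peak number then has no value. The tandem repeat difference was -2.57 points at 80% identity (chosen after seeing the data, as was the tandem repeat result).

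Hybrid regions numbered 15725 as segments shared by both DRIP lists, 3577 when peaks of all 6 RNase H lists were subtracted (chosen after seeing the data), and 9918 to 47232 with 1 library left out, the highest without DRIP replicate 1 and 26561 without DRIP replicate 2. The share with no RNase H peak, 77.1%, became 91.9% when peaks had to cover 50% of a region, 81.9% at −log10 q of at least 3, 75.3% and 97.5% with the DRIP or the RNase H lists cut to equal length, 99.3% when both RNase H lists had to meet a region, 79.3% with subtraction within each replicate, 83.0% for segments, 75.1% with merging over 1000 bp, 73.6% with RNase H peaks within 1000 bp, 27.8% with all 6 RNase H lists, and 77.1% to 99.2% with 1 library left out.

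The promoter share of hybrid minus residual regions, 3.26 points, was 11.5 at 50% cover, 9.86 with RNase H lists cut to equal length and 13.3 with both RNase H lists required. It turned to -0.00551 when placed by any overlap, to -11.3 with all 6 RNase H lists, and to -0.917 without DRIP replicate 2, in a leave-one-out range of -0.917 to 13.8 (the highest without RNase H replicate 2). The terminator difference, 1.37 points, was 10.3 at 50% cover, -0.238 with merging, -0.514 with all 6 RNase H lists and -1.49 to 3.41 with 1 library left out (the lowest without DRIP replicate 2). The causes were not tested. Leaving out unplaced and Y chromosomes changed none of these values.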

Other observations

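Exonic peaks like those of DICER1 occurred in RNase H replicate 1 at CBS and CTH. Only a few genes were examined in this way, all after their values were seen. MUC6, also examined, had 6 RNase H replicate 1 peaks, of which 4 overlapped exons, but its peaks covered 9.28% of exonic and 12.2% of intronic bases. CBS, which encodes cystathionine beta-synthase, had 3 RNase H replicate 1 peaks with folds of 75.3 to 108. All overlapped exons, and they covered 28.4% of exonic and 2.21% of intronic bases. CTH, which encodes the next enzyme of transsulfuration, had 2 such peaks with folds of 60.0 to 104. RNase H replicate 2 had 1 CBS peak, of 4.38, and none at CTH, and no DRIP peak overlapped an exon of either gene. DICER1 had 9 to 13 peaks in each of the 8 lists from CPT-treated cells, and its highest fold was 134 after 5 min and 39.9 after 60 min in DRIP replicate 1, and 237 and 198 in RNase H replicate 1.

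Zinc finger genes of chromosome 19 were set against its other genes after the values were seen. Hybrid regions overlapped 46 of 249 zinc finger genes (18.5%) and residual regions 12 (4.82%), against 588 (47.8%) and 502 (40.8%) of the other 1231 genes of that chromosome. Median gene length was 25.9 kb in the former and 13.8 kb in the latter. Zinc finger genes of other chromosomes were overlapped by hybrid regions in 57 of 266 cases (21.4%).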
